A study of Arabidopsis thaliana with 18 samples.

Results

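The genes described here are those whose transcripts were higher after *Psm* treatment in systemic leaves of both mutants, bak1-5 and lecrk-VI.2-2, and of the wild type. A probe set was taken as a member when the mean log2 signal of 3 *Psm* arrays exceeded that of 3 MgCl2 arrays by at least 1, a doubling, in each of the 3 genotypes. Of 22746 probe sets other than Affymetrix controls, 100 passed, and 22 of these were left out by name: CYP genes, JAZ genes and a fixed list of further names that runs from PR5, BGL2 and DMR6 to LOX2, AOS and CRT3. The remaining 78 are the members, 72 assigned to 1 gene and 6 to several. The difference between *Psm* and MgCl2 arrays, called the response, chose the members, so responses are given as a description and support nothing by themselves.

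The study asked whether systemic acquired resistance (SAR) needs LecRK-VI.2, a lectin receptor kinase, and its co-receptor BAK1. The groups were bak1-5 *Psm*, bak1-5 MgCl2, lecrk-VI.2-2 *Psm*, lecrk-VI.2-2 MgCl2, Col-0 *Psm* and Col-0 MgCl2, with 3 ATH1 arrays each, 18 in all. All plants were of the Col-0 background, bak1-5 is a mutant allele of BAK1, and lecrk-VI.2-2 is a single T-DNA insertion line that the study describes as a knockdown. Lower leaves of soil-grown plants were infiltrated either with *Psm* (Pseudomonas syringae pv. maculicola ES4326, a virulent leaf pathogen) at an OD600 of 0.002 in 10 mM MgCl2 or with 10 mM MgCl2 alone, and untreated upper leaves were taken 48 hr later. Each RNA sample came from 12 plants. The 3 samples of a group are called independent biological replicates, without a statement of whether they were grown and treated at separate times, so the p-values measure the spread between these samples. In leaf samples, fewer cells of a type and less RNA per cell cannot be told apart.

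SAR is a resistance of the whole plant that follows infection of a few leaves. Salicylic acid (SA) is the hormone best known for it, and jasmonic acid (JA), made from membrane lipids, steers responses to wounding and herbivores and is often opposed to SA. Leaves that secrete many defence proteins also need more of the folding machinery of the endoplasmic reticulum (ER). Plants of the cabbage family store glucosinolates, and ER bodies hold beta-glucosidases that break such compounds down upon damage. The members include genes of each of these systems.

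A pair of lecrk-VI.2-2 arrays was weak. A log2 signal of at least 6 was reached by 16.0% of the probe sets in MgCl2 replicate 2 and by 16.8% in *Psm* replicate 3, while the remaining 16 arrays ranged between 18.2% and 19.6%. The probe set of LecRK-VI.2 (AT5G01540) stayed below 6 in every group, with means of 5.59 and 5.56 in lecrk-VI.2-2 *Psm* and MgCl2 samples, against 5.84 and 5.48 in Col-0. The MgCl2 mean was not lower in the mutant, so the probe set is no check of the lecrk-VI.2-2 label. The part of its low signal in this was not tested. BAK1 averaged 5.48 and 5.66 in bak1-5 *Psm* and MgCl2 samples, against 5.96 and 5.57 in Col-0. The leaf marker that could be assigned, RCA (Rubisco activase, 1 of 5 listed), was at a mean of at least 12.53 in all 6 groups and passed the test in no genotype. Of the other listed markers, 1 of 5 guard cell, 2 of 4 phloem, 1 of 4 dividing cell, 2 of 3 senescence and 0 of 4 epidermis genes were assigned. Both senescence genes rose in Col-0, by 1.34 (SAG13) and 1.2 (SAG21), and passed in neither mutant. The phloem sugar transporter SWEET12 rose by 0.87 in bak1-5 and 1.65 in Col-0. SWEET12 and both senescence genes were named only by a match to genes that changed in the wild type. Their passing in Col-0 was therefore largely set by the naming. The other phloem gene, SWEET11, passed in no genotype, with 0.29 in bak1-5, 0.19 in lecrk-VI.2-2 and 0.26 in Col-0. The dividing cell gene AUR2, an aurora kinase, fell by 0.33 in bak1-5 and passed in neither lecrk-VI.2-2 nor Col-0. The log2 of the summed signal of the senescence pair was 5.72 to 5.94 in bak1-5 *Psm*, 5.57 to 6.31 in bak1-5 MgCl2, 5.32 to 6.11 in lecrk-VI.2-2 *Psm*, 5.09 to 5.58 in lecrk-VI.2-2 MgCl2, 6.97 to 7.36 in Col-0 *Psm* and 5.48 to 6.11 in Col-0 MgCl2 arrays. The part of these cell types in the responses below was not tested.

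The responses of the members ran from 1.05 to 4.86 in bak1-5 (median 2.21), from 1.01 to 3.61 in lecrk-VI.2-2 (median 1.39) and from 1.25 to 6.02 in Col-0 (median 2.94), on the log2 scale. Over all probe sets the median response was -0.04, 0.00 and -0.04 in these genotypes. The standard error of a response was 0.12 to 0.65 (median 0.32). One spread was fitted over all groups, so a member has a single standard error. In 62 members the order was Col-0, then bak1-5, then lecrk-VI.2-2. The response was largest in Col-0 for 66 members, in bak1-5 for 11 and in lecrk-VI.2-2 for 1, and smallest in lecrk-VI.2-2 for 71, in bak1-5 for 5 and in Col-0 for 2. Set against the Col-0 response of the same member, on the log2 scale, the median was 75.2% in bak1-5 (35.9% to 202%) and 48.5% in lecrk-VI.2-2 (31.0% to 102%).

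lecrk-VI.2-2 sets the size of this group. Responses of at least 1 were found for 238 probe sets in bak1-5, 105 in lecrk-VI.2-2 and 567 in Col-0 (1.05%, 0.462% and 2.49% of all). Of the 105 in lecrk-VI.2-2, 100 also reached 1 in both other genotypes and 2 in Col-0 but not in bak1-5. A further 106 probe sets reached 1 in bak1-5 and Col-0 only, with a median lecrk-VI.2-2 response of 0.69. Just inside the limit lay AT3G09440 (smallest response 1.010), AT2G04400 (1.014), MKK9 (1.017) and PMEPCRA (1.023), and just outside it JRG21 (0.990), AT3G60420 (0.964), SOT16 (0.964) and CB5-C (0.961). In all 8 the smallest response was that of lecrk-VI.2-2.

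In limma's fit over all probe sets, the responses of 71 members in bak1-5, 37 in lecrk-VI.2-2 and 78 in Col-0 had a q value (p adjusted by the method of Benjamini and Hochberg) of 0.05 or less. Without lecrk-VI.2-2 *Psm* replicate 2 the count in lecrk-VI.2-2 was 23. Among all probe sets, 4.08%, 0.607% and 7.36% were called higher in these genotypes. All 3 *Psm* arrays lay above all 3 MgCl2 arrays for 76 members in bak1-5, 71 in lecrk-VI.2-2 and 78 in Col-0, against 10.7%, 4.88% and 15.1% of all probe sets. The rule used these contrasts, and nothing is read from either count. The plot of responses by role group shows every member in the 3 genotypes.

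**Figure D1:**
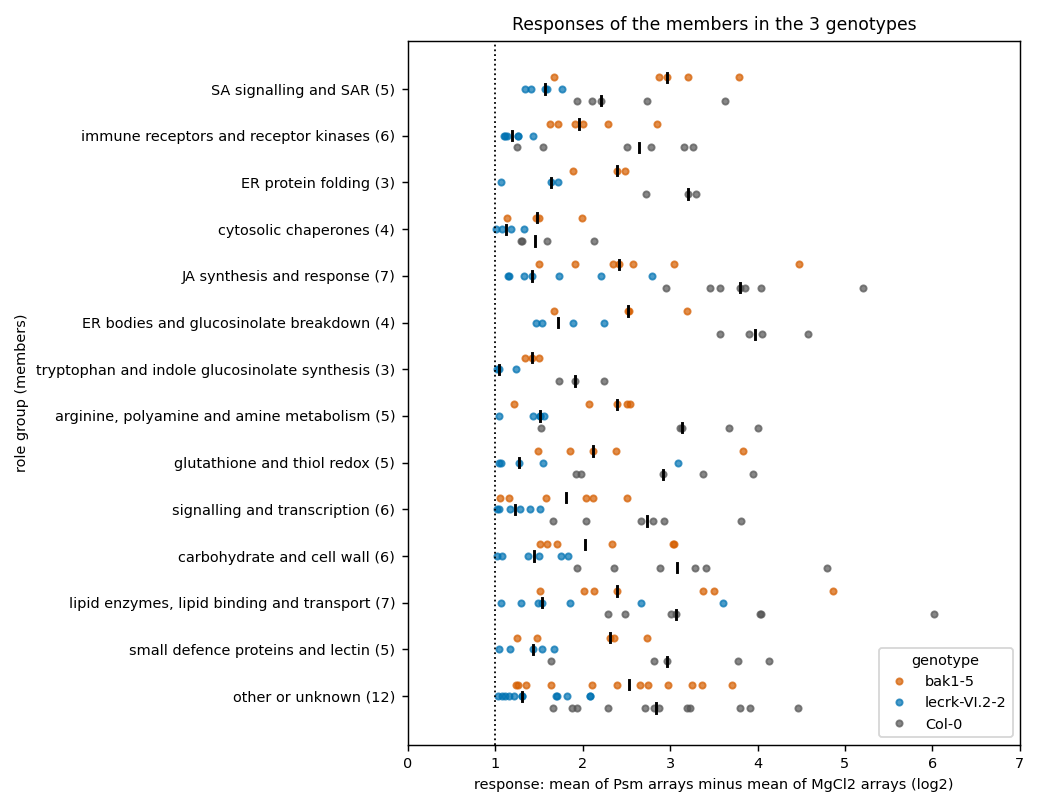
Response of each of the 78 members (log2, mean of 3 Psm arrays minus mean of 3 MgCl2 arrays) in bak1-5 (orange), lecrk-VI.2-2 (blue) and Col-0 (grey), by role group. Each point is a member, the black bar is the median of the group, and the dotted line is the limit of 1 that the rule set. The medians of lecrk-VI.2-2 lie between 1.04 and 1.71 in all 14 role groups, below those of bak1-5 and Col-0.

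The largest responses shared by all genotypes belonged to PCR1/PCR2, a probe set for a pair of plant cadmium resistance proteins of the plasma membrane. Its log2 signals were 8.96, 8.98 and 8.65 in bak1-5 *Psm* arrays, against 4.20, 3.99 and 3.81 in bak1-5 MgCl2 arrays. They were 7.81, 8.13 and 8.50 in lecrk-VI.2-2 *Psm* arrays, against 5.06, 4.06 and 4.51 in lecrk-VI.2-2 MgCl2 arrays. In the wild type they were 9.89, 10.10 and 10.14 in Col-0 *Psm* arrays, against 4.17, 4.11 and 3.78 in Col-0 MgCl2 arrays. The *Psm* and MgCl2 arrays did not overlap in any genotype, and the 3 genotypes kept apart in their *Psm* arrays, lecrk-VI.2-2 lowest and Col-0 highest. The responses were 4.86 in bak1-5, 3.61 in lecrk-VI.2-2 and 6.02 in Col-0 (SE 0.20 each).

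GSTF3, a glutathione S-transferase of the phi class, followed. It reached 9.41, 9.53 and 9.59 in bak1-5 *Psm* arrays, 8.99, 9.19 and 8.83 in lecrk-VI.2-2 *Psm* arrays and 10.15, 9.83 and 10.21 in Col-0 *Psm* arrays, against MgCl2 values of 6.06, 5.14 and 5.85, 6.89, 5.02 and 5.83 and 5.98, 5.90 and 6.46 in the same genotypes. Its *Psm* values lay close together within each genotype, while the lecrk-VI.2-2 MgCl2 arrays were spread widely, replicate 2 lowest. AT5G55450, of the lipid transfer protein family, was at 8.26, 8.77 and 8.11 in bak1-5 *Psm* arrays, against 5.07, 4.57 and 4.97 in bak1-5 MgCl2 arrays. In lecrk-VI.2-2 the same gene was at 7.57, 7.81 and 7.75 in lecrk-VI.2-2 *Psm* arrays, against 5.32, 4.95 and 4.84 in lecrk-VI.2-2 MgCl2 arrays, and in the wild type at 9.08, 8.88 and 9.42 in Col-0 *Psm* arrays, against 5.09, 4.81 and 5.37 in Col-0 MgCl2 arrays. AT1G76960, a small protein of unknown role, had 7.01, 6.85 and 6.61 in bak1-5 *Psm* arrays, against 3.87, 3.85 and 3.81 in bak1-5 MgCl2 arrays. It had 6.11, 6.61 and 6.21 in lecrk-VI.2-2 *Psm* arrays, against 4.19, 4.25 and 4.24 in lecrk-VI.2-2 MgCl2 arrays, and 7.82, 7.52 and 7.79 in Col-0 *Psm* arrays, against 3.76, 3.75 and 3.89 in Col-0 MgCl2 arrays. In these 4 members the 3 *Psm* arrays of a genotype lay close together.

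In the other 6 of the 10 members with the largest smallest response, the *Psm* arrays of the mutants were spread widely. VSP1, vegetative storage protein 1, a classic JA-responsive gene, was at 11.05, 11.45 and 9.35 in bak1-5 *Psm* arrays, 9.31, 10.91 and 8.06 in lecrk-VI.2-2 *Psm* arrays and 11.97, 11.76 and 11.40 in Col-0 *Psm* arrays. Its MgCl2 values were 6.19, 5.19 and 7.04, 6.92, 5.46 and 7.52 and 6.53, 6.69 and 6.30 in these genotypes. BGLU18, the beta-glucosidase of inducible ER bodies, was at 10.53, 11.03 and 9.13 in bak1-5 *Psm* arrays, against 7.49, 6.05 and 7.58 in bak1-5 MgCl2 arrays. It was at 8.64, 11.06 and 8.13 in lecrk-VI.2-2 *Psm* arrays, against 7.53, 5.88 and 7.69 in lecrk-VI.2-2 MgCl2 arrays, and at 12.32, 11.22 and 11.46 in Col-0 *Psm* arrays, against 7.06, 7.59 and 6.62 in Col-0 MgCl2 arrays. In both genes lecrk-VI.2-2 *Psm* replicate 2 was the highest of its group and bak1-5 *Psm* replicate 3 the lowest of its group. AOC1, allene oxide cyclase of JA synthesis, showed 9.31, 9.92 and 8.35 in bak1-5 plants, 7.38, 9.72 and 7.74 in lecrk-VI.2-2 and 10.82, 10.15 and 10.24 in Col-0 *Psm* arrays, against 6.48, 5.85 and 6.12, 6.10, 5.25 and 6.87 and 7.29, 6.99 and 5.34 in their MgCl2 arrays. JAL23, a jacalin-related lectin, showed 7.69, 7.44 and 5.89, 5.91, 7.75 and 5.25 and 8.73, 8.30 and 7.99 in *Psm* arrays of the 3 genotypes in the same order, against 4.64, 4.27 and 4.52, 4.44, 4.04 and 4.76 and 4.54, 4.68 and 4.11 in MgCl2 arrays.

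AT3G28220, of the TRAF-like family, had *Psm* values of 10.30, 10.78 and 8.12 in bak1-5 plants, 7.37, 10.59 and 7.59 in lecrk-VI.2-2 and 11.65, 11.29 and 11.17 in Col-0, and MgCl2 values of 6.51, 6.36 and 6.57, 6.74, 6.38 and 6.18 and 6.51, 7.35 and 6.87. AT4G17470, a putative palmitoyl-protein thioesterase, had *Psm* values of 8.71, 9.49 and 7.62 in bak1-5 plants, 6.40, 8.54 and 5.92 in lecrk-VI.2-2 and 9.92, 8.97 and 9.0 in Col-0, and MgCl2 values of 5.37, 4.70 and 5.63, 4.76, 5.28 and 5.26 and 5.22, 5.34 and 5.26. Again the mutants' *Psm* arrays split. Among those of lecrk-VI.2-2, replicate 2 lay closest to the wild type, and replicates 1 and 3 lay closer to their own MgCl2 arrays. The heat map of members by array shows how far this split runs through the members.

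**Figure D2:**
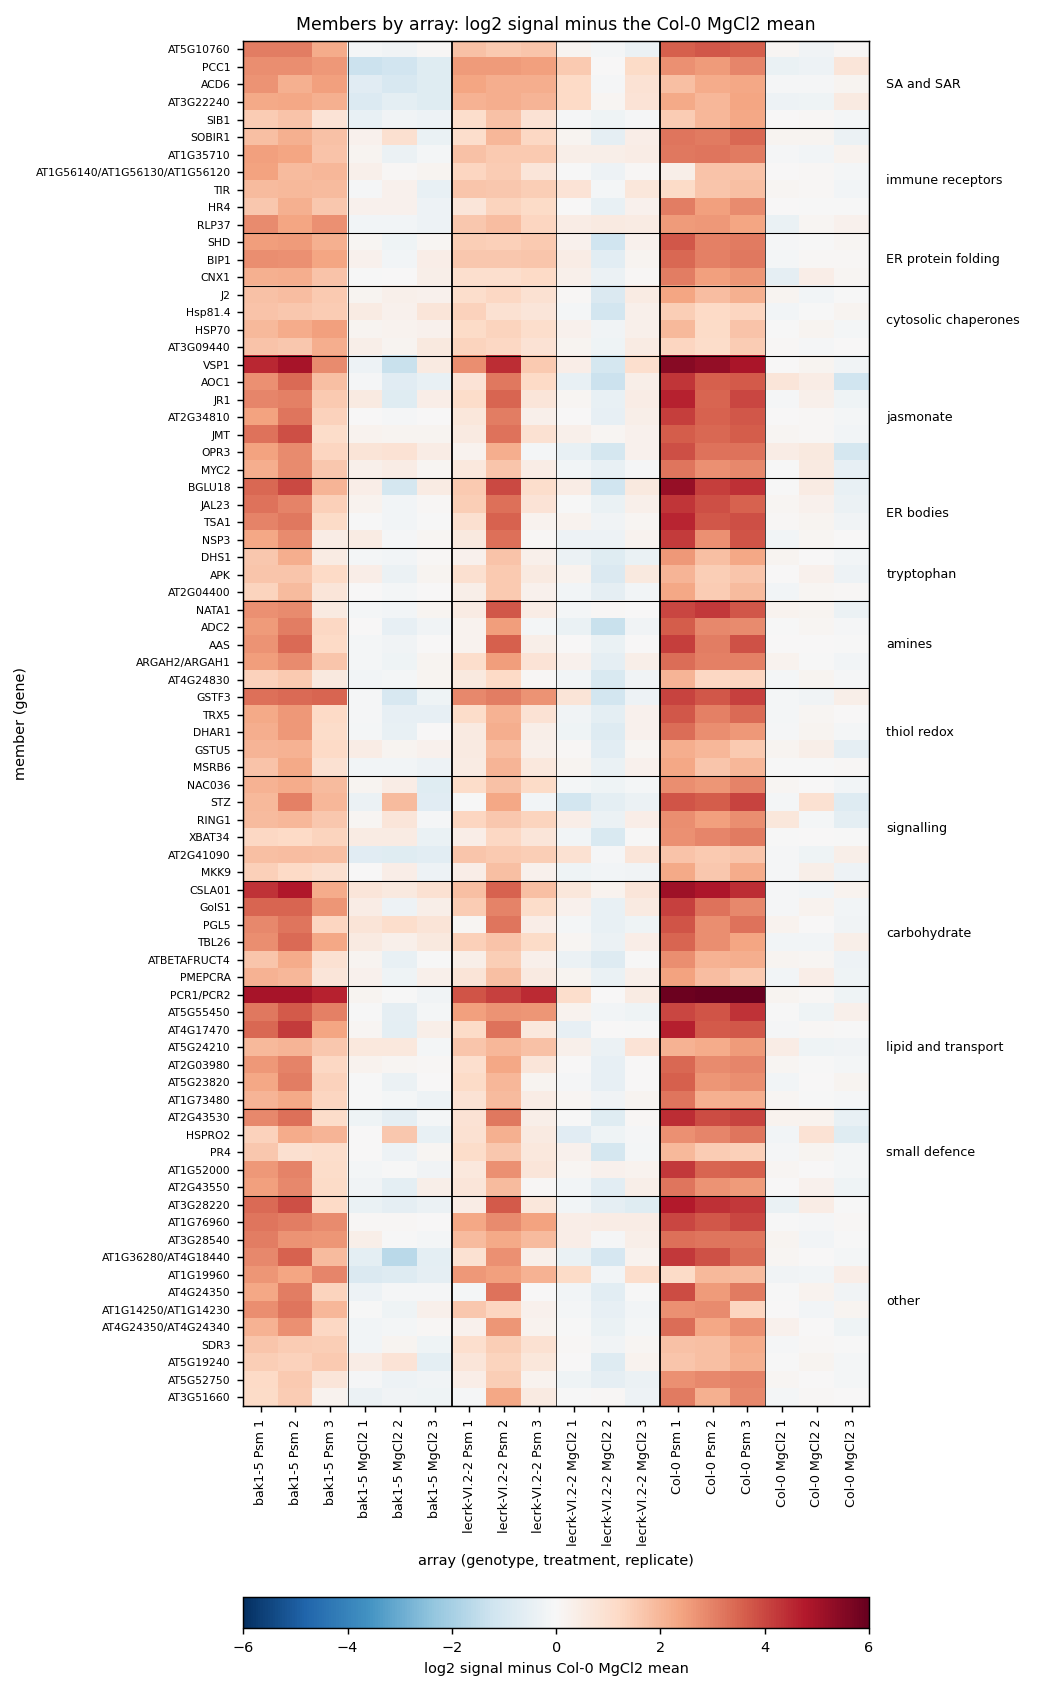
Log2 signal of the 78 members in the 18 arrays minus the Col-0 MgCl2 mean of the member, with 3 replicates for each genotype and treatment in columns and members grouped by role in rows. Red is higher and blue lower. The column of lecrk-VI.2-2 Psm replicate 2 is darker than replicates 1 and 3 in the jasmonate, ER body, tryptophan and amine rows, and of like shade in the SA rows other than SIB1 and in the ER folding and chaperone rows.

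Averaged over the 78 members, the 3 *Psm* arrays stood 2.43, 2.67 and 1.70 above the MgCl2 mean in bak1-5 plants, 1.16, 2.30 and 0.97 in lecrk-VI.2-2 and 3.18, 2.78 and 2.91 in Col-0. lecrk-VI.2-2 *Psm* replicate 2 was the highest of its group in 64 members, and bak1-5 *Psm* replicate 3 the lowest of its group in 64. The first stood above the mean of replicates 1 and 3 by a median of 1.15 over the members (-0.17 to 3.32), against 0.01 over all probe sets, and by at least 1 in 42 members (0.664% of all probe sets). The second stood below the mean of replicates 1 and 2 by at least 1 in 32 members (0.347% of all), with a median of -0.87 over the members (-2.45 to 0.52) and -0.09 over all probe sets. Among probe sets raised in Col-0 only and in Col-0 and bak1-5 only, which the rule did not take, the median of the first was 0.50 and 0.44. It was at least 1 in 18.4% and 19.8% of them. Among the 22 that met the rule and were left out by name, the median was 0.89. There 50.0% were at 1 or more, beside 53.8% of the members. A high value in lecrk-VI.2-2 *Psm* replicate 2 also raises the mean that the rule used. Members that stood out in one array stood out in the other. Across the 78 members the differences had a Pearson r of -0.82 and a Spearman rho of -0.80, which describe these arrays, since all members share them.

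**Figure D3:**
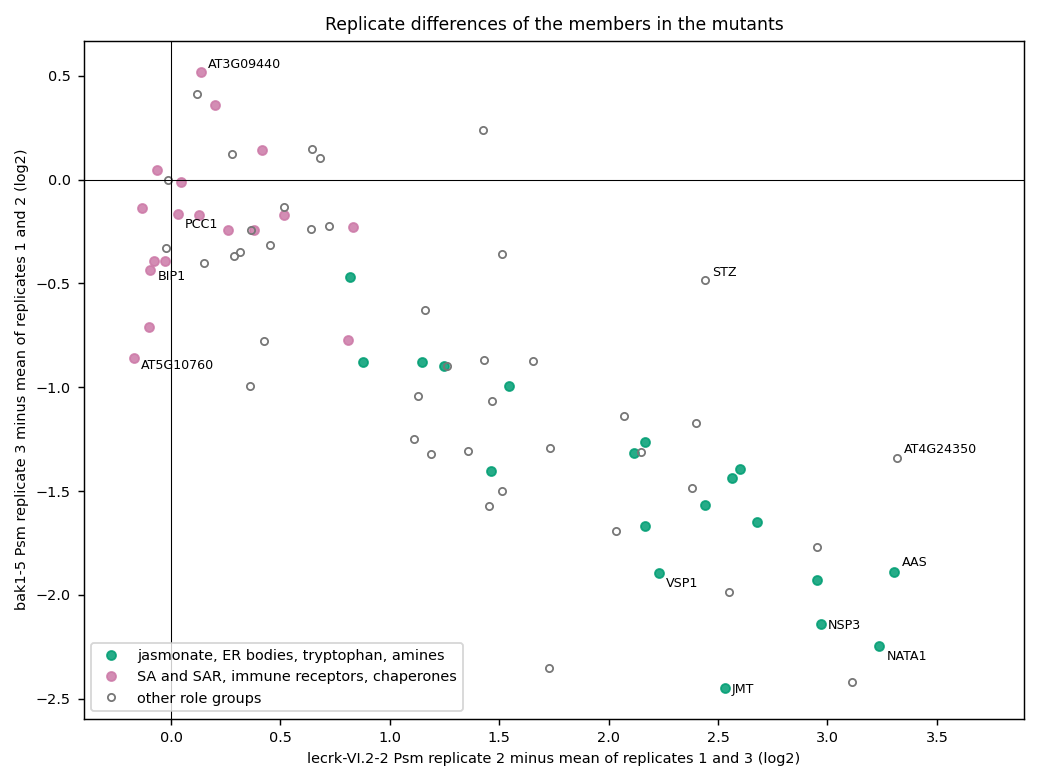
Difference of lecrk-VI.2-2 Psm replicate 2 from the mean of replicates 1 and 3 (horizontal) against the difference of bak1-5 Psm replicate 3 from the mean of replicates 1 and 2 (vertical), both log2, for the 78 members. Green points are members of the jasmonate, ER body, tryptophan and amine groups, pink points those of the SA, immune receptor, ER folding and cytosolic chaperone groups, open points the others. Pink points reach 0.83 (SOBIR1) on the horizontal axis, and green points 3.31 (AAS).

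The rule therefore rested on 1 array for many members. Without lecrk-VI.2-2 *Psm* replicate 2, 38 of the 78 stayed at or above 1 in lecrk-VI.2-2, the median response there was 1.00, and 9 members were below 0.5. Leaving out lecrk-VI.2-2 MgCl2 replicate 2, 1 of the weak arrays, left 57 members and added 2 probe sets. Leaving out each array in turn, 32 members passed the rule every time. With medians of 3 arrays in place of means, 37 members passed and 1 other probe set joined them. The members that stayed without lecrk-VI.2-2 *Psm* replicate 2 were 5 of 5 in the SA group, 3 of 3 in ER folding, 4 of 6 immune receptors, 3 of 4 cytosolic chaperones, 2 of 7 in the JA group, 2 of 4 in the ER body group, 0 of 3 in the tryptophan group and 0 of 5 in the amine group. These counts hold for that array alone. With each array left out in turn, CNX1 and the chaperones J2, Hsp81.4, HSP70 and AT3G09440 did not pass every time. SHD, BIP1, VSP1, AOC1, BGLU18 and JAL23 did.

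The 5 members of the SA group had a q of 0.05 or less in each genotype, in the contrasts that chose them. Over all probe sets 4.08%, 0.607% and 7.36% were called higher in bak1-5, lecrk-VI.2-2 and Col-0. AT5G10760, an aspartyl protease family member, was at 7.72, 7.69 and 6.84 in bak1-5 *Psm* arrays, against 4.51, 4.42 and 4.72 in bak1-5 MgCl2 arrays. It was at 6.40, 6.19 and 6.31 in lecrk-VI.2-2 *Psm* arrays, against 4.80, 4.51 and 4.31 in lecrk-VI.2-2 MgCl2 arrays. In the wild type it was at 8.22, 8.36 and 8.23 in Col-0 *Psm* arrays, against 4.76, 4.45 and 4.70 in Col-0 MgCl2 arrays. Its *Psm* arrays were ordered lecrk-VI.2-2, bak1-5, Col-0 with no overlap, and its MgCl2 arrays overlapped. SIB1, a partner of the transcription factor WRKY33, had responses of 1.67 in bak1-5, 1.34 in lecrk-VI.2-2 and 1.94 in Col-0 (SE 0.22 each). The remaining 3 were PCC1, AT3G22240 and ACD6, whose responses were larger in bak1-5 than in the wild type.

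PCC1, a small SA-responsive protein controlled by pathogens and the circadian clock, gave 12.09, 12.11 and 11.94 in bak1-5 *Psm* arrays, 11.87, 11.86 and 11.79 in lecrk-VI.2-2 *Psm* arrays and 12.07, 11.89 and 12.23 in Col-0 *Psm* arrays. In MgCl2 arrays it gave 8.03, 8.15 and 8.60 in bak1-5 plants, 10.91, 9.36 and 10.48 in lecrk-VI.2-2 and 8.94, 9.0 and 10.03 in Col-0. The *Psm* arrays of the 3 genotypes lay close together, those of lecrk-VI.2-2 just below Col-0, while the MgCl2 means were 8.26 ± 0.30, 10.25 ± 0.80 and 9.32 ± 0.61 (SD, n = 3 each). The MgCl2 mean was 1.06 below Col-0 in bak1-5, with no overlap of arrays, and 0.93 above it in lecrk-VI.2-2, where replicate 2 lay within the range of the wild type. The responses were 3.79 in bak1-5, 1.59 in lecrk-VI.2-2 and 2.74 in Col-0 (SE 0.30 each).

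Its neighbour AT3G22240, a hypothetical protein whose locus is separated from PCC1 by 1 protein-coding gene in the RefSeq annotation, behaved likewise. The *Psm* values were 12.19, 12.22 and 12.04 in bak1-5 plants, 11.97, 12.08 and 11.94 in lecrk-VI.2-2 and 12.15, 11.91 and 12.26 in Col-0. The MgCl2 values were 9.06, 9.30 and 9.19 in bak1-5 plants, 11.07, 10.00 and 10.71 in lecrk-VI.2-2 and 9.59, 9.64 and 10.46 in Col-0. ACD6, an ankyrin-repeat membrane protein that promotes SA signalling, gave 10.80, 10.26 and 10.58 in bak1-5 plants, 10.48, 10.32 and 10.29 in lecrk-VI.2-2 and 9.90, 10.35 and 10.43 in Col-0 after *Psm*, and 7.44, 7.17 and 7.40, 9.32, 8.06 and 9.0 and 8.03, 8.04 and 8.29 after MgCl2. For both genes the bak1-5 MgCl2 arrays lay below those of Col-0 with no overlap, and the *Psm* arrays of the genotypes overlapped.

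Calmodulin-like AT2G41090 and the hypothetical AT1G19960 shared the order of MgCl2 levels. AT2G41090 was at 11.39, 11.39 and 11.39 in bak1-5 *Psm* arrays, against 8.88, 8.84 and 8.94 in bak1-5 MgCl2 arrays. It was at 11.24, 11.13 and 11.05 in lecrk-VI.2-2 *Psm* arrays, against 10.48, 9.49 and 10.31 in lecrk-VI.2-2 MgCl2 arrays, and at 11.30, 11.13 and 11.25 in Col-0 *Psm* arrays, against 9.49, 9.30 and 9.90 in Col-0 MgCl2 arrays. AT1G19960 was at 9.29, 9.01 and 9.56 in bak1-5 *Psm* arrays, against 5.80, 5.88 and 6.10 in bak1-5 MgCl2 arrays. It was at 9.26, 9.11 and 8.72 in lecrk-VI.2-2 *Psm* arrays, against 7.81, 6.47 and 7.72 in lecrk-VI.2-2 MgCl2 arrays, and at 7.82, 8.60 and 8.53 in Col-0 *Psm* arrays, against 6.42, 6.50 and 7.03 in Col-0 MgCl2 arrays. AT1G19960 is 1 of 2 members whose response was smallest in Col-0, and its *Psm* arrays were higher in both mutants than in the wild type with no overlap. The other of the 2 was the probe set of the leucine-rich repeat kinases AT1G56140, AT1G56130 and AT1G56120, at 6.30, 5.80 and 5.88 in bak1-5 plants, 5.21, 5.43 and 4.63 in lecrk-VI.2-2 and 4.24, 5.61 and 5.60 in Col-0 *Psm* arrays. There Col-0 *Psm* replicate 1 was near the MgCl2 arrays (3.93, 3.97 and 3.80 in Col-0).

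In MgCl2 samples, 9 members lay lower in bak1-5 than in Col-0 with no overlap of arrays (5.46% of all probe sets) and 7 lay higher (7.33% of all). The 9 were PCC1, ACD6, AT3G22240, AT2G41090, AT1G19960, the aspartase-like pair AT1G36280/AT4G18440, SIB1, AT3G51660 and MSRB6. The 7, a share near that of all probe sets, held the 4 cytosolic chaperones J2, Hsp81.4, HSP70 and AT3G09440 along with CSLA01, PGL5 and JMT. In lecrk-VI.2-2 MgCl2 samples 5 members lay below Col-0 (5.28% of all) and 3 above (3.65% of all). The plot of 5 members, which were picked after their values were seen, shows the MgCl2 levels. These differences enter the responses that chose the members, so they were not tested.

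**Figure D4:**
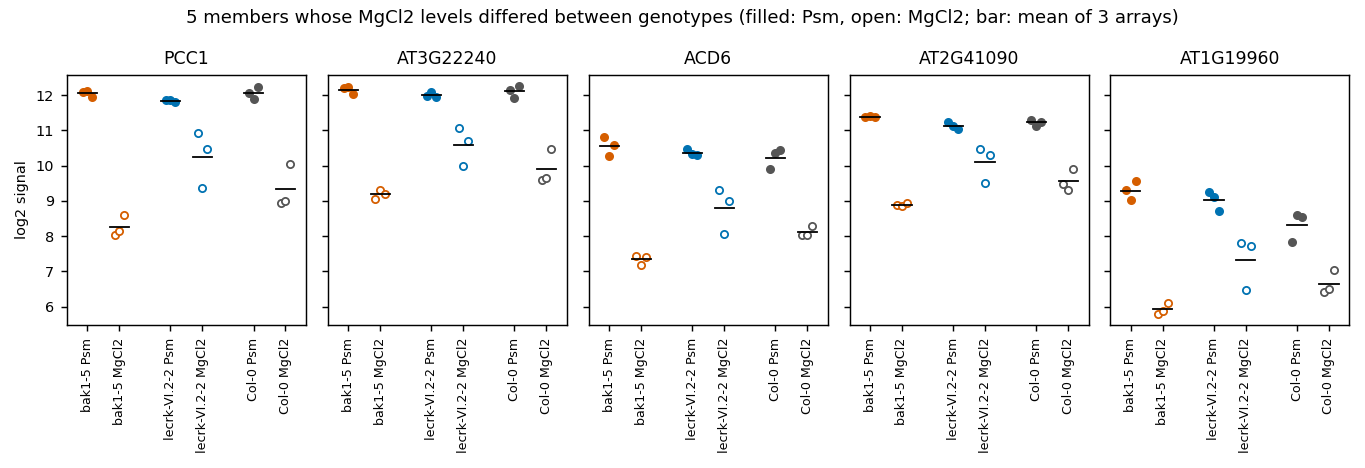
Log2 signal of PCC1, AT3G22240, ACD6, AT2G41090 and AT1G19960 in each array, Psm (filled) and MgCl2 (open), in bak1-5, lecrk-VI.2-2 and Col-0. Bars are means of 3 arrays. The MgCl2 means are lowest in bak1-5 and highest in lecrk-VI.2-2 for all 5 genes, while the Psm means differ less.

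Immune receptors formed a further group of 6, all with a q of 0.05 or less in each genotype. These are the contrasts that chose them, and 4.08%, 0.607% and 7.36% of all probe sets were called higher in bak1-5, lecrk-VI.2-2 and Col-0. SOBIR1, the adaptor kinase of receptor-like proteins, was at 8.38, 8.70 and 8.31 in bak1-5 plants, 7.64, 8.55 and 7.79 in lecrk-VI.2-2 and 9.79, 9.70 and 9.99 in Col-0 *Psm* arrays, against 6.82, 7.53 and 6.15, 6.74, 6.0 and 6.95 and 6.73, 6.75 and 6.21 in MgCl2 arrays. Both mutants stayed below the wild type after *Psm* with no overlap, and the MgCl2 arrays overlapped. AT1G35710, a leucine-rich repeat receptor kinase, had responses of 2.29 in bak1-5, 1.26 in lecrk-VI.2-2 and 3.16 in Col-0 (SE 0.16 each). HR4, a homolog of the resistance protein RPW8, had 1.72 in bak1-5, 1.11 in lecrk-VI.2-2 and 2.78 in Col-0 (SE 0.20 each). Responses of the receptor-like protein RLP37 and of TIR, a Toll/interleukin-1 receptor domain protein, were larger in bak1-5 than in Col-0, at 2.85 against 2.51 and at 2.00 against 1.55, with 1.09 and 1.13 in lecrk-VI.2-2.

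ER folding was represented by 3 members whose lecrk-VI.2-2 *Psm* arrays lay close together, while lecrk-VI.2-2 MgCl2 replicate 2, a weak array, was the lowest of its group in each. SHD, the ER form of HSP90, was at 8.69, 8.75 and 8.32 in bak1-5 *Psm* arrays, against 6.32, 5.96 and 6.30 in bak1-5 MgCl2 arrays. It was at 7.65, 7.64 and 7.78 in lecrk-VI.2-2 *Psm* arrays, against 6.43, 5.02 and 6.47 in lecrk-VI.2-2 MgCl2 arrays, and at 9.92, 9.23 and 9.32 in Col-0 *Psm* arrays, against 6.13, 6.15 and 6.31 in Col-0 MgCl2 arrays. The 3 *Psm* groups did not overlap, and the lecrk-VI.2-2 *Psm* arrays nearly coincided. BIP1, the ER HSP70, whose probe set may also detect BIP2, reached 8.46, 8.39 and 8.03 in bak1-5 plants, 7.28, 7.26 and 7.30 in lecrk-VI.2-2 and 9.07, 8.67 and 8.81 in Col-0 *Psm* arrays, against 5.92, 5.48 and 6.04, 6.09, 5.01 and 5.81 and 5.51, 5.72 and 5.71 in MgCl2 arrays. CNX1, calnexin, which holds glycoproteins in the ER until they are folded, had responses of 1.89 in bak1-5, 1.07 in lecrk-VI.2-2 and 2.72 in Col-0 (SE 0.21 each). The 4 cytosolic chaperones changed less, with responses of 1.13 to 1.99 in bak1-5, 1.01 to 1.32 in lecrk-VI.2-2 and 1.29 to 2.13 in Col-0. HSP70 was at 6.36, 6.61 and 6.84 in bak1-5 plants, 5.56, 5.71 and 5.46 in lecrk-VI.2-2 and 6.32, 5.53 and 6.11 in Col-0 *Psm* arrays, the bak1-5 arrays lying above the other groups.

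The 7 JA members had median responses of 2.42 in bak1-5, 1.42 in lecrk-VI.2-2 and 3.80 in Col-0. They include enzymes of JA synthesis (AOC1 and OPR3, the reductase of its precursor), JMT, which methylates JA, the transcription factor MYC2 and the downstream genes VSP1, JR1 and AT2G34810. OPR3 was at 9.30, 9.70 and 8.19 in bak1-5 plants, 7.08, 9.04 and 6.76 in lecrk-VI.2-2 and 10.75, 10.11 and 10.12 in Col-0 *Psm* arrays, against 7.64, 7.73 and 7.32, 6.41, 5.84 and 7.14 and 7.33, 7.47 and 5.84 in MgCl2 arrays. In lecrk-VI.2-2 its *Psm* replicates 1 and 3 lay within the range of the MgCl2 arrays, and without replicate 2 the response was 0.46. JMT had 7.61, 8.19 and 5.45 in bak1-5 plants, 4.86, 7.58 and 5.23 in lecrk-VI.2-2 and 7.97, 7.77 and 7.97 in Col-0 *Psm* arrays. For JMT the difference of bak1-5 *Psm* replicate 3 from the mean of the other replicates was -2.45, the largest such gap among the members. MYC2 had responses of 1.91 in bak1-5, 1.15 in lecrk-VI.2-2 and 2.95 in Col-0 (SE 0.31 each), and 0.77 in lecrk-VI.2-2 without replicate 2. VSP1 and AOC1 were the JA members that stayed above 1 there, at 2.05 and 1.48.

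The 4 members of the ER body and glucosinolate breakdown group had the highest median response in Col-0, 3.98. In lecrk-VI.2-2, 0 of the 4 had a q of 0.05 or less, where 0.607% of all probe sets were called higher. They were BGLU18, its partner TSA1 in inducible ER bodies, the lectin JAL23 and the nitrile-specifier protein NSP3, which steers glucosinolate breakdown to nitriles. BGLU18 and TSA1 are adjacent genes. TSA1 was at 7.35, 7.51 and 5.50 in bak1-5 plants, 5.34, 7.90 and 4.56 in lecrk-VI.2-2 and 8.91, 8.08 and 8.23 in Col-0 *Psm* arrays, against 4.33, 4.18 and 4.32, 4.54, 4.15 and 4.49 and 4.43, 4.50 and 4.13 in MgCl2 arrays. NSP3 was at 6.64, 7.16 and 4.76, 4.90, 7.63 and 4.41 and 8.53, 7.07 and 8.12 in *Psm* arrays of bak1-5, lecrk-VI.2-2 and Col-0. In both genes lecrk-VI.2-2 *Psm* replicate 2 was above bak1-5 *Psm* replicates 1 and 2, and lecrk-VI.2-2 *Psm* replicates 1 and 3 were below them.

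Amine and arginine metabolism held 5 members. AAS, an aromatic aldehyde synthase, was at 8.36, 9.07 and 6.82 in bak1-5 plants, 5.86, 9.23 and 6.0 in lecrk-VI.2-2 and 9.79, 8.71 and 9.47 in Col-0 *Psm* arrays, against 5.53, 5.43 and 5.66, 5.66, 5.24 and 5.67 and 5.65, 5.68 and 5.62 in MgCl2 arrays. NATA1, which acetylates ornithine and diamines, was at 7.98, 8.08 and 5.79, 5.76, 8.97 and 5.71 and 9.28, 9.52 and 9.0 in *Psm* arrays in the same order of genotypes. In lecrk-VI.2-2, replicate 2 of these genes exceeded the mean of the other replicates by 3.31 and 3.24, and without it the responses were 0.40 and 0.48. ADC2, arginine decarboxylase of putrescine synthesis, had responses of 2.50 in bak1-5, 1.51 in lecrk-VI.2-2 and 3.11 in Col-0 (SE 0.52 each). The arginase pair ARGAH2/ARGAH1 had 2.39 in bak1-5, 1.43 in lecrk-VI.2-2 and 3.13 in Col-0 (SE 0.34 each), and the argininosuccinate synthase AT4G24830 had 1.22 in bak1-5, 1.05 in lecrk-VI.2-2 and 1.52 in Col-0 (SE 0.28 each). The tryptophan group held DHS1, which opens the shikimate pathway, AT2G04400, indole-3-glycerol phosphate synthase, and APK, an APS kinase that feeds sulfation of glucosinolates. Their responses were 1.34 to 1.50 in bak1-5, 1.01 to 1.24 in lecrk-VI.2-2 and 1.72 to 2.24 in Col-0.

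Of the 5 thiol redox members, TRX5, the h-type thioredoxin known to reduce NPR1, had responses of 2.38 in bak1-5, 1.55 in lecrk-VI.2-2 and 3.37 in Col-0 (SE 0.32 each), and dehydroascorbate reductase DHAR1 had 2.12 in bak1-5, 1.28 in lecrk-VI.2-2 and 2.91 in Col-0 (SE 0.40 each). GSTU5, a tau-class glutathione S-transferase, responded by 1.49 in bak1-5, 1.07 in lecrk-VI.2-2 and 1.92 in Col-0 (SE 0.33 each). MSRB6, a methionine sulfoxide reductase, responded by 1.86 in bak1-5, 1.04 in lecrk-VI.2-2 and 1.98 in Col-0 (SE 0.33 each). The 6 signalling members were the zinc finger repressor STZ, the transcription factor NAC036, the ubiquitin ligases RING1 and XBAT34, the kinase MKK9 and calmodulin-like AT2G41090. STZ was at 7.27, 8.36 and 7.33 in bak1-5 *Psm* arrays, against 4.96, 7.23 and 4.67 in bak1-5 MgCl2 arrays. It was at 5.30, 7.66 and 5.15 in lecrk-VI.2-2 *Psm* arrays, against 4.20, 4.74 and 4.95 in lecrk-VI.2-2 MgCl2 arrays, and at 9.10, 8.95 and 9.36 in Col-0 *Psm* arrays, against 5.19, 6.22 and 4.57 in Col-0 MgCl2 arrays. Replicate 2 was the highest *Psm* array in both mutants, and in bak1-5 the MgCl2 array of the same number was also high.

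Carbohydrate and cell wall genes numbered 6. CSLA01, a cellulose synthase-like glucomannan synthase, had responses of 3.03 in bak1-5, 1.84 in lecrk-VI.2-2 and 4.79 in Col-0 (SE 0.49 each), and GolS1, galactinol synthase, of 3.04 in bak1-5, 1.76 in lecrk-VI.2-2 and 3.41 in Col-0 (SE 0.40 each). PGL5, a 6-phosphogluconolactonase of the pentose phosphate pathway, had 1.59 in bak1-5, 1.50 in lecrk-VI.2-2 and 3.28 in Col-0 (SE 0.57 each), and 0.52 in lecrk-VI.2-2 without replicate 2. The vacuolar invertase ATBETAFRUCT4, the pectin methylesterase PMEPCRA and the acetylation-related TBL26 responded by 1.51 to 2.34 in bak1-5, 1.02 to 1.38 in lecrk-VI.2-2 and 1.93 to 2.88 in Col-0. Small defence proteins and a lectin made up 5: the defensin-like AT2G43530 and AT2G43550, chitin-binding PR4, HSPRO2 and the mannose-binding lectin AT1G52000. AT2G43530 reached 8.65, 9.07 and 6.88 in bak1-5 plants, 6.61, 8.92 and 6.13 in lecrk-VI.2-2 and 10.20, 9.65 and 9.81 in Col-0 *Psm* arrays. PR4 was even across genotypes, with 1.25 in bak1-5, 1.43 in lecrk-VI.2-2 and 1.63 in Col-0 (SE 0.28 each). The remaining 7 lipid and transport genes, among them PCR1/PCR2 and AT5G55450, had median responses of 2.39 in bak1-5, 1.53 in lecrk-VI.2-2 and 3.06 in Col-0, and the 12 of other or unknown role had medians of 2.53, 1.31 and 2.84.

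The genotype level is the mean of a genotype's *Psm* and MgCl2 group means. The rule used the difference of these means and not their average, so the level is built from the same arrays. With equal spread in all groups it does not vary together with the responses, but a difference in response also enters it, and the spread was unequal in all 3 genotypes. The median SD over the members in *Psm* and MgCl2 samples was 0.526 and 0.211 in bak1-5 plants, 0.686 and 0.364 in lecrk-VI.2-2 and 0.328 and 0.180 in Col-0. In limma's test over all probe sets, 0 members were higher and 26 were lower in lecrk-VI.2-2 than in Col-0 at a q of 0.05 or less, against 0.378% and 2.72% of all probe sets. In bak1-5 against Col-0, 0 were higher and 5 lower, against 0.479% and 0.681% of all. Between lecrk-VI.2-2 and bak1-5 no member was called, against 0.0176% higher and 0.0747% lower of all probe sets. The median level difference of the members was -0.85 for lecrk-VI.2-2 minus Col-0, -0.40 for bak1-5 minus Col-0 and -0.46 for lecrk-VI.2-2 minus bak1-5, against 0.01, 0.01 and 0.00 over all probe sets. The share of members called lower in lecrk-VI.2-2, 33.3%, stood beside 47.2% of the 106 probe sets raised in Col-0 and bak1-5 only and 56.3% of the 359 raised in Col-0 only. In bak1-5 the shares were 6.41%, 7.55% and 18.7%. Among the 22 probe sets that met the rule and were left out by name, 22.7% were called lower in bak1-5 and 45.5% in lecrk-VI.2-2. All these groups were set by the responses, and a difference in response enters the level. The shares are therefore a description, and nothing is read from their order.

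Among the 26 members called lower in lecrk-VI.2-2, the largest level differences were those of STZ at -1.90 (SE 0.44, q = 0.024), OPR3 at -1.56 (SE 0.37, q = 0.025), ADC2 at -1.45 (SE 0.37, q = 0.037), the aspartase-like pair AT1G36280/AT4G18440 at -1.44 (SE 0.35, q = 0.03) and AT5G52750, a heavy metal-associated domain protein, at -1.28 (SE 0.16, q = 0.00029). The next were XBAT34 at -1.25 (SE 0.17, q = 0.00037), MYC2 at -1.14 (SE 0.22, q = 0.0067) and TRX5 at -1.09 (SE 0.23, q = 0.012), and SHD was at -1.01 (SE 0.19, q = 0.0063). AT3G28220, at -1.67 (SE 0.46, q = 0.055), and AT2G43530, at -1.44 (SE 0.39, q = 0.052), had differences of like size that did not pass. The ER members BIP1 and CNX1 were called as well, at -0.79 (SE 0.14, q = 0.0048) and -0.82 (SE 0.15, q = 0.0053), so 3 of 3 ER folding members were called. For SHD, BIP1 and CNX1 the difference from Col-0 was -1.80, -1.58 and -1.65 in *Psm* samples. In MgCl2 samples it was -0.22, -0.01 and 0.01. By role, 3 of 6 immune receptors, 3 of 6 signalling, 3 of 7 lipid and transport, 2 of 7 JA, 1 of 5 SA and 0 of 4 ER body members were called lower. Over the 26 members the difference was -3.10 to -0.79 in *Psm* samples (median -1.82). In MgCl2 samples it was -0.69 to 0.52 (median -0.17), so the calls came mostly from the *Psm* samples. All lecrk-VI.2-2 *Psm* arrays lay below all Col-0 *Psm* arrays in 26 of 26 (12.0% of all probe sets). The level that picked these members contains those arrays, so this separation describes the call and is no further support. In MgCl2 samples all lecrk-VI.2-2 arrays lay below all Col-0 arrays in 3 (5.28% of all) and above them in 2, AT1G35710 and AT1G76960 (3.65% of all).

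The call depended on single arrays. Without lecrk-VI.2-2 *Psm* replicate 2 the count was 58, without Col-0 MgCl2 replicate 1 or 2 or lecrk-VI.2-2 *Psm* replicate 1 or 3 it was 15, and without Col-0 *Psm* replicate 1 it was 16. Without both weak arrays it was 16. The 13 members called under all 26 alternative fits at a q of 0.05 were AT5G52750, XBAT34, MYC2, SHD, HR4, CNX1, NAC036, BIP1, AT5G55450, PCR1/PCR2, AT1G35710, AT5G10760 and AT1G76960.

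In bak1-5 the 5 members called lower were AT5G52750 at -0.96 (SE 0.16, q = 0.0052), XBAT34 at -0.74 (SE 0.17, q = 0.033), PCR1/PCR2 at -0.60 (SE 0.14, q = 0.048), AT1G35710 at -0.55 (SE 0.11, q = 0.019) and AT1G76960 at -0.42 (SE 0.09, q = 0.016). All 5 were also called lower in lecrk-VI.2-2, a comparison that shares the Col-0 arrays. AT5G52750 was at 5.44, 5.82 and 5.00 in bak1-5 plants, 4.66, 5.73 and 4.48 in lecrk-VI.2-2 and 7.03, 7.14 and 7.24 in Col-0 *Psm* arrays, against 4.17, 3.97 and 4.06, 4.00, 3.71 and 3.92 and 4.37, 4.28 and 4.14 in MgCl2 arrays. XBAT34 was at 5.95, 5.95 and 6.06, 5.15, 5.99 and 5.47 and 7.49, 7.66 and 7.84 in *Psm* arrays and at 5.25, 5.21 and 4.35, 4.55, 3.84 and 4.71 and 4.71, 4.77 and 4.72 in MgCl2 arrays, in the same order of genotypes. In both genes every mutant *Psm* array lay below every Col-0 *Psm* array. Over the 26 alternative fits the bak1-5 call of PCR1/PCR2 was lost in 14, that of XBAT34 in 11, those of AT1G35710 and AT1G76960 in 3 each and that of AT5G52750 in 0. The bak1-5 count was 2 or 3 without bak1-5 MgCl2 replicate 2 or 3, without bak1-5 *Psm* replicate 3, or without any 1 of the 6 Col-0 arrays. Against bak1-5, 1 to 5 members were called in lecrk-VI.2-2 when Col-0 *Psm* replicate 1 or 2, bak1-5 *Psm* replicate 3, any 1 of the 3 lecrk-VI.2-2 MgCl2 arrays or lecrk-VI.2-2 *Psm* replicate 2 was left out.

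Over all 78 members, MgCl2 samples differed little between genotypes, with a median of -0.04 for bak1-5 minus Col-0 (-1.06 to 0.86) and -0.08 for lecrk-VI.2-2 minus Col-0 (-0.69 to 0.93). In *Psm* samples the medians were -0.79 (-1.98 to 0.97) and -1.66 (-3.10 to 0.71). All bak1-5 *Psm* arrays lay below all Col-0 *Psm* arrays in 37 members (9.52% of all probe sets) and above them in 7 (10.4% of all). All lecrk-VI.2-2 *Psm* arrays lay below those of Col-0 in 52 members (12.0% of all probe sets) and above them in 1, AT1G19960 (12.9% of all). The 7 above Col-0 in bak1-5, a smaller share than that of all probe sets, were mixed in role. They were the chaperones HSP70, Hsp81.4 and AT3G09440, the receptors TIR and AT1G56140/AT1G56130/AT1G56120, AT1G19960 and AT2G41090. Set against bak1-5, all lecrk-VI.2-2 *Psm* arrays lay lower in 22 members and higher in 0 (6.87% and 6.86% of all probe sets), and all lecrk-VI.2-2 MgCl2 arrays lower in 7 and higher in 9 (6.34% and 3.82% of all).

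**Figure D5:**
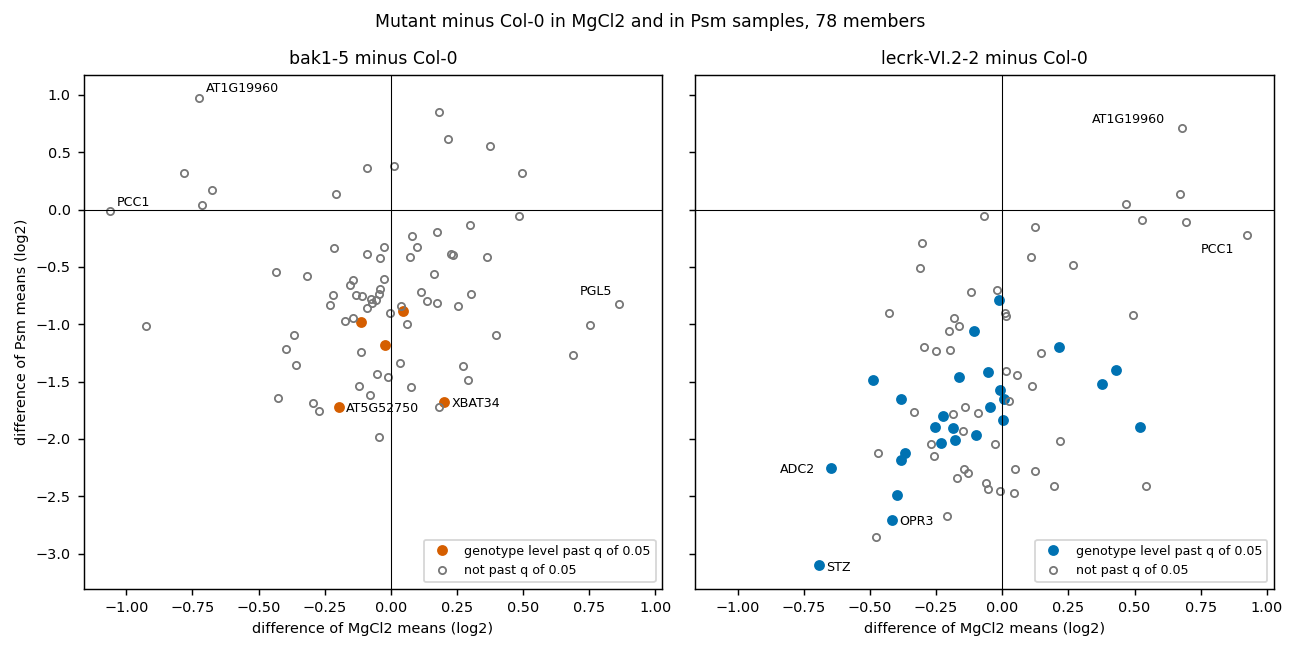
Difference of a mutant from Col-0 in MgCl2 samples (horizontal) and in Psm samples (vertical), log2 means of 3 arrays, for the 78 members in bak1-5 (left) and lecrk-VI.2-2 (right). Filled points are the 5 and 26 members whose genotype level passed a q of 0.05. Most points lie below 0 on the vertical axis and near 0 on the horizontal one, with PCC1 far left of 0 in bak1-5 and far right of 0 in lecrk-VI.2-2.

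Other genes of the same systems, taken from lists, were counted for each genotype at a q of 0.05 or less, 1 probe set per gene. These lists were drawn up with earlier results of the arrays known. The platform named only 5 of 13 JA, 4 of 10 ER folding, 3 of 20 SA and 1 of 11 tryptophan genes. It also named 3 of 8 cytosolic chaperones, 4 of 6 ER body, 6 of 8 amine, 2 of 8 immune receptor and 3 of 8 thiol redox genes. The others were named by a match to genes that changed in the wild type, so their passing in Col-0 was largely set by the naming. Of 13 further JA genes, 4 rose in bak1-5, 0 in lecrk-VI.2-2 and 11 in Col-0, with median responses of 0.45, 0.24 and 1.71. Among them the allene oxide cyclase AOC3 responded by 0.24, 0.17 and 1.80 and the lipoxygenase LOX4 by -0.21, 0.17 and 1.99 in bak1-5, lecrk-VI.2-2 and Col-0, where AOC1 among the members had passed 1 in all 3. Of 10 further ER folding genes, 7 rose in bak1-5, 3 in lecrk-VI.2-2 and 10 in Col-0. The 3 in lecrk-VI.2-2 were the calreticulin CRT1B (1.35 in bak1-5, 0.78 in lecrk-VI.2-2, 2.05 in Col-0), the disulfide isomerase PDIL1-1 (0.73, 0.70 and 1.85) and SDF2 (1.43, 0.90 and 2.07).

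Of 20 further genes of SA signalling and SAR, 8 rose in bak1-5, 1 in lecrk-VI.2-2 and 20 in Col-0, with medians of 0.26, 0.29 and 1.14. The 1 in lecrk-VI.2-2 was the transcription factor WRKY54, at 1.24 in bak1-5, 0.73 in lecrk-VI.2-2 and 1.53 in Col-0. PR1, the classic SAR marker, was not a member, with 1.65 in bak1-5, 0.29 in lecrk-VI.2-2 and 3.80 in Col-0. Of 11 further genes of tryptophan and indole glucosinolate synthesis, 5 rose in bak1-5, 1 (GSTF9, 0.80) in lecrk-VI.2-2 and 11 in Col-0. Of 8 further cytosolic chaperones, 4, 2 and 6 rose in the 3 genotypes, of 6 further ER body genes 1, 0 and 3, and of 8 further amine genes 4, 0 and 2. The 8 further immune receptors gave 2, 0 and 5, and the 8 further thiol redox genes 1, 1 and 6. No gene of these 9 lists fell in any genotype.

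In unchallenged leaves the members were brighter than most probe sets. Their median MgCl2 level in Col-0 was 5.64 (3.62 to 9.90), against 4.56 over all probe sets. Of the 78, 44 were below 6 there and the others at or above it, while 18.3% to 19.1% of all probe sets reached 6 in a Col-0 MgCl2 array, and 3 members stayed below 6 in every group. The highest MgCl2 levels were those of AT3G22240, AT2G41090 and PCC1. The loci of the members lay on chromosomes 1 to 5 in shares of 27.7%, 21.7%, 16.9%, 18.1% and 15.7%, beside 26.1%, 15.7%, 19.9%, 15.2% and 23.1% of the protein-coding genes of the RefSeq annotation (TAIR10.1). Neighbours with no protein-coding gene between them were BGLU18 and TSA1, AT4G24340 and AT4G24350 (phosphorylase family), and AT1G56120, AT1G56130 and AT1G56140, which share a probe set. JMT and DHAR1, and ACD6 and XBAT34, were each separated by 5 genes. The neighbours ACD6 and XBAT34 differed, the response of ACD6 being 3.21 in bak1-5 and 2.11 in Col-0, and that of XBAT34 1.05 and 2.93.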

How the data were processed

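RNA of systemic leaves from 18 plant samples, 3 in each of 6 groups, was hybridised to ATH1 arrays. The deposited values are log2 signals per probe set, which the authors obtained by Robust Multichip Analysis (RMA) as implemented in affy. RMA subtracts background, gives all arrays one quantile distribution and condenses each set of probes to a single value. Since the distributions are made equal, a shift shared by most genes would not be seen. There is no sequencing depth here, and precision is limited by the number of arrays.

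After 64 control probe sets were left out, group means were estimated for 22746 probe sets from all 18 arrays with lmFit and eBayes of limma 3.58.1, run in R 4.3.3 (12 residual degrees of freedom, 18.03 with the prior), with p-values adjusted by the method of Benjamini and Hochberg over all probe sets of a comparison. Tables were made in Python 3.11.15 with pandas 2.3.3 and figures with matplotlib 3.10.9. Simulated arrays in which 200 of 22746 probe sets were changed served as a test. The fit of the genotype level of bak1-5 minus Col-0 recovered 87% of differences of 0.5 and 99% of differences of 1, with 13 others called. The changed probe sets were drawn at random, and each probe set had 1 spread in all groups. The members were more variable, with a median SD of 0.686 in lecrk-VI.2-2 *Psm* samples against 0.126 over all probe sets. The recovery therefore does not carry over to them.

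Of the members, 34 took their names from the platform annotation and 44 only by matching their responses, within 0.0006, to entries of a gene list supplied with the paper. That list holds genes that changed in the wild type, so matched names, and the further genes counted by list, favour Col-0. The suffix of 15 members marks probe sets that may detect several related genes, and 7773 probe sets had no name. The genome build behind the array annotation is not given in the sources used here, so no coordinates are printed, and the RefSeq annotation (TAIR10.1) served for names, chromosomes and neighbouring genes. Any member assigned to 1 gene could be named. Values per array were given for the 10 members with the largest smallest response, those called in the comparisons of genotype level, members of each role group and those whose response was smallest in Col-0, while the 5 members plotted for their MgCl2 levels were picked after their values were seen. The members, the gene lists and the rule were chosen with earlier results of these data known. Alternatives were array weights, cyclic loess, median centring, an intensity trend with a robust prior, leaving out dim probe sets (highest group mean below 6), a block for the replicate number, the arrays of the compared genotypes alone, a q of 0.01, leaving out each array, leaving out both weak arrays and medians of 3 arrays in the rule.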

Additional observations from a re-analysis of the deposited data

How the results depend on the processing

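The genotype level of lecrk-VI.2-2 minus Col-0 called 26 members and 705 probe sets, bak1-5 minus Col-0 called 5 and 264, and lecrk-VI.2-2 minus bak1-5 called 0 and 21. Array weights gave 1187 probe sets for lecrk-VI.2-2 minus Col-0, 15 members and 1277 probe sets for bak1-5 minus Col-0, 10 and 345 for lecrk-VI.2-2 minus bak1-5, and a response at a q of 0.05 or less for 78 members in lecrk-VI.2-2 (37 without weights). Cyclic loess gave 1104 and 472 probe sets for the mutants against Col-0, lecrk-VI.2-2 first, and 5 members and 93 probe sets for lecrk-VI.2-2 minus bak1-5. In this last comparison, leaving out dim probe sets gave 2 and 50, and median centring 3 and 90. With the arrays of the compared genotypes alone, bak1-5 minus Col-0 called 9 and 533, and lecrk-VI.2-2 minus bak1-5 11 probe sets. Without the pair of weak arrays the counts were 16 and 464 for lecrk-VI.2-2 minus Col-0, 9 and 574 for bak1-5 minus Col-0, and 5 and 43 for lecrk-VI.2-2 minus bak1-5. At a q of 0.01 they were 12 and 245, 1 and 102, and 0 probe sets in the same order, and 24 members had a lecrk-VI.2-2 response that passed. With medians of 3 arrays the rule took 38 members. The cause of these shifts was not tested, beyond the stricter threshold and the smaller number of arrays or probe sets where an alternative sets them.

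Leaving out 1 array at a time, the genotype level called 15 to 58 members and 358 to 987 probe sets in lecrk-VI.2-2 minus Col-0, 2 to 7 and 161 to 452 in bak1-5 minus Col-0, and 0 to 5 and 0 to 166 in lecrk-VI.2-2 minus bak1-5. Responses with a q of 0.05 or less numbered 59 to 78 in bak1-5, 23 (without lecrk-VI.2-2 Psm replicate 2) to 45 in lecrk-VI.2-2 and 78 each time in Col-0. The rule took 38 to 100 probe sets. No level difference of a called member changed sign in any alternative fit.

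With the replicate number as a block, the level called 29 members and 686 probe sets in lecrk-VI.2-2 minus Col-0, 4 and 253 in bak1-5 minus Col-0, and 0 and 25 in lecrk-VI.2-2 minus bak1-5, and the responses of 74 members in bak1-5, 38 in lecrk-VI.2-2 and 78 in Col-0 passed. Deviations of same-numbered arrays from their group means correlated between -0.437 and 0.322, with values of both signs. Between the mutants, the *Psm* arrays gave 0.0621 for replicate 1, 0.322 for replicate 2 and 0.26 for replicate 3. Such mixed values cannot decide whether samples of the same number were grown or treated together, and this was not tested.

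Limits: 44 of the 78 members are named only by a match, the LecRK-VI.2 probe set was too dim to check its label, and 3 arrays a group leave single arrays in a position to decide a count. Low signals, 44 of 78 members below 6 in Col-0 MgCl2 samples, compress differences near the background.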
